A study of Mus musculus with 8 samples.

Results

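The extracellular matrix genes described here are 41 genes listed by symbol: collagens, matrix glycoproteins, and the enzymes that hydroxylate or crosslink collagen, leaving out the chains of laminin-332. All 41 were found among the 19457 genes of the table. They were measured in primary keratinocytes, the epithelial cells of the epidermis, grown in culture and harvested before confluence from wild-type mice (WT, 4 libraries) and from HOIL1 ΔRING1 mice (HdR, 4 libraries). HOIL1, encoded by Rbck1, belongs to LUBAC, the enzyme complex that joins ubiquitin into linear chains, and the mutant is named for loss of its first RING domain. The labels give no strain, age, sex or treatment, and do not state whether every cell of the animal carried the mutation and whether libraries of the same genotype are independent animals, independent cultures or neither. All p-values therefore measure the spread between these libraries, which may be technical.

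The skin has different kinds of matrix on the sides of the dermal-epidermal border. Keratinocytes rest on a basement membrane, a sheet built of laminins and of a type IV collagen network that are tied together by nidogen, perlecan and agrin, and that is anchored to the dermis by fibrils of collagen VII. Dermal fibroblasts make the fibrillar collagens I, III and V, collagen VI, periostin, and the lysyl oxidases that crosslink them. Inside the cell, prolyl and lysyl hydroxylases modify collagen chains before the triple helix is closed. Members were accordingly sorted into 13 epithelial-type genes, 13 fibroblast-type genes and 15 genes that both cell types are known to make. The study is a bulk measurement, in which fewer cells of a type and less RNA per cell cannot be told apart.

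The deposited values are sums of aligned bases per gene. After scaling for depth they are given here as aligned bases per Mb, that is, the bases of a library that fell on the gene for every Mb of its normalised total. WT libraries held 4.78 to 5.43 Gb of aligned bases and HdR libraries 2.31 to 4.31 Gb, so depth and genotype cannot be told apart. Rbck1 averaged 87.5 ± 3.42 (SD, n = 4) in WT and 43.7 ± 1.82 (SD, n = 4) in HdR, with no overlap between the groups. The 41 members together took 0.246 to 0.285% of aligned bases in WT and 0.282 to 0.303% in HdR. Summed keratinocyte markers (10 of 10 measured) ranged from 44012 to 47347 in WT and from 46493 to 47481 in HdR. Summed melanocyte markers ranged from 51.8 to 59.8 in WT and from 27.1 to 29.5 in HdR, where 6 of the 7 tested markers were lower. Their part in the results was not tested.

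Measured per kb of exon, the scale on which genes can be compared with each other, the basement membrane and adhesive genes were the most abundant members. Col18a1, which encodes the core of a basement membrane proteoglycan, stood at the top with 124 ± 6.90 aligned bases per Mb per kb (SD, n = 4) in WT libraries and 146 ± 3.90 in HdR libraries. Thbs1, the adhesive glycoprotein thrombospondin 1, came next at 58.0 ± 4.58 in WT and 66.8 ± 1.71 in HdR, followed in WT by Tgfbi at 31.9 ± 2.53, Sparc at 17.4 ± 0.337 and Agrn at 17.2 ± 1.65. The Sparc and Agrn means lay closer together than the Agrn libraries did to each other. At the other end, the fibrillar collagens Col1a1 and Col3a1 averaged 0.0070 and 0.0018 in WT, and Col1a2 and Loxl1 were listed at 0 in all 4 WT libraries. The median over the 13 epithelial-type members was 7.53 in WT and 7.64 in HdR, against 0.0446 and 0.0775 over the 13 fibroblast-type members.

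**Figure D1:**
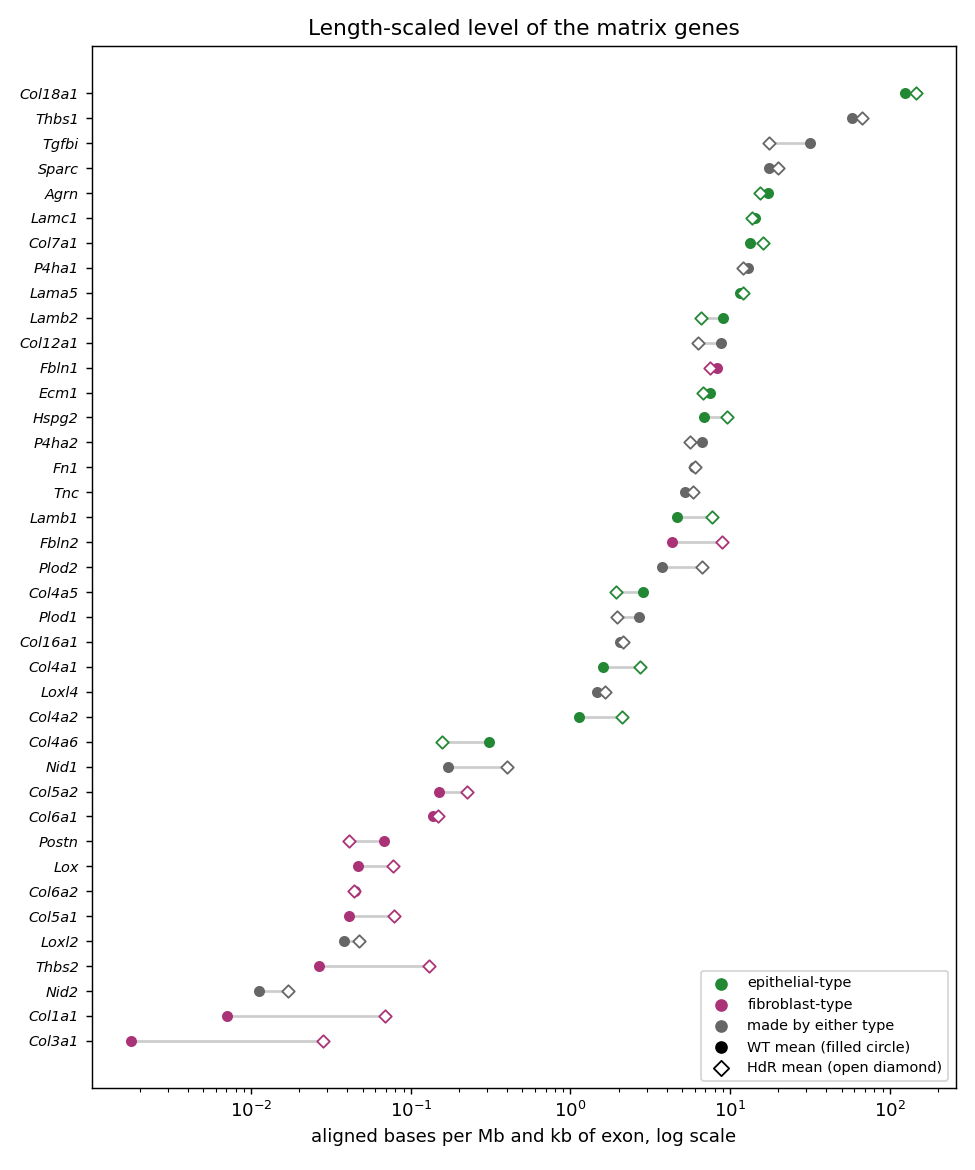
Mean level of each member per kb of exon (aligned bases per Mb per kb, logarithmic axis) in WT and HdR libraries, 4 of each, for the 39 members above 0 in WT, with the gene type shown by colour. Col18a1 stands highest, at 124 in WT and 146 in HdR, and most fibroblast-type genes lie at the bottom of the scale.

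Of the 41 members, 29 averaged at least 1 aligned base per Mb over the 8 libraries and were tested; each of these 29 also averaged at least 1 in both genotypes. A gene was called when limma's adjusted p (Benjamini-Hochberg, over all 11870 genes tested) was under 0.05. Of the 29, 19 were called, where 45.2% of all tested genes were called. The calls were 12 higher in HdR and 7 lower, against backgrounds of 21.3% and 23.9% of all tested genes. The values of the WT and HdR libraries did not overlap for 16 of the 29, and for 41.1% of all tested genes. The median difference of the tested members, HdR minus WT on the log2(value + 1) scale used throughout for differences, was 0.07, with a range from -0.86 for Tgfbi to 1.01 for Fbln2, and the median over all tested genes was -0.010. When the difference had to exceed a fold of 1.2, 7 members were higher and 3 lower, and 344 and 543 of all 11870 tested genes. With every library thinned to the depth of the smallest, 12 members were higher and 8 lower. The share of all genes called after thinning is not given here, so those counts have no background. The remaining 12 members were too low to test and are described with the fibroblast-type genes.

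**Figure D2:**
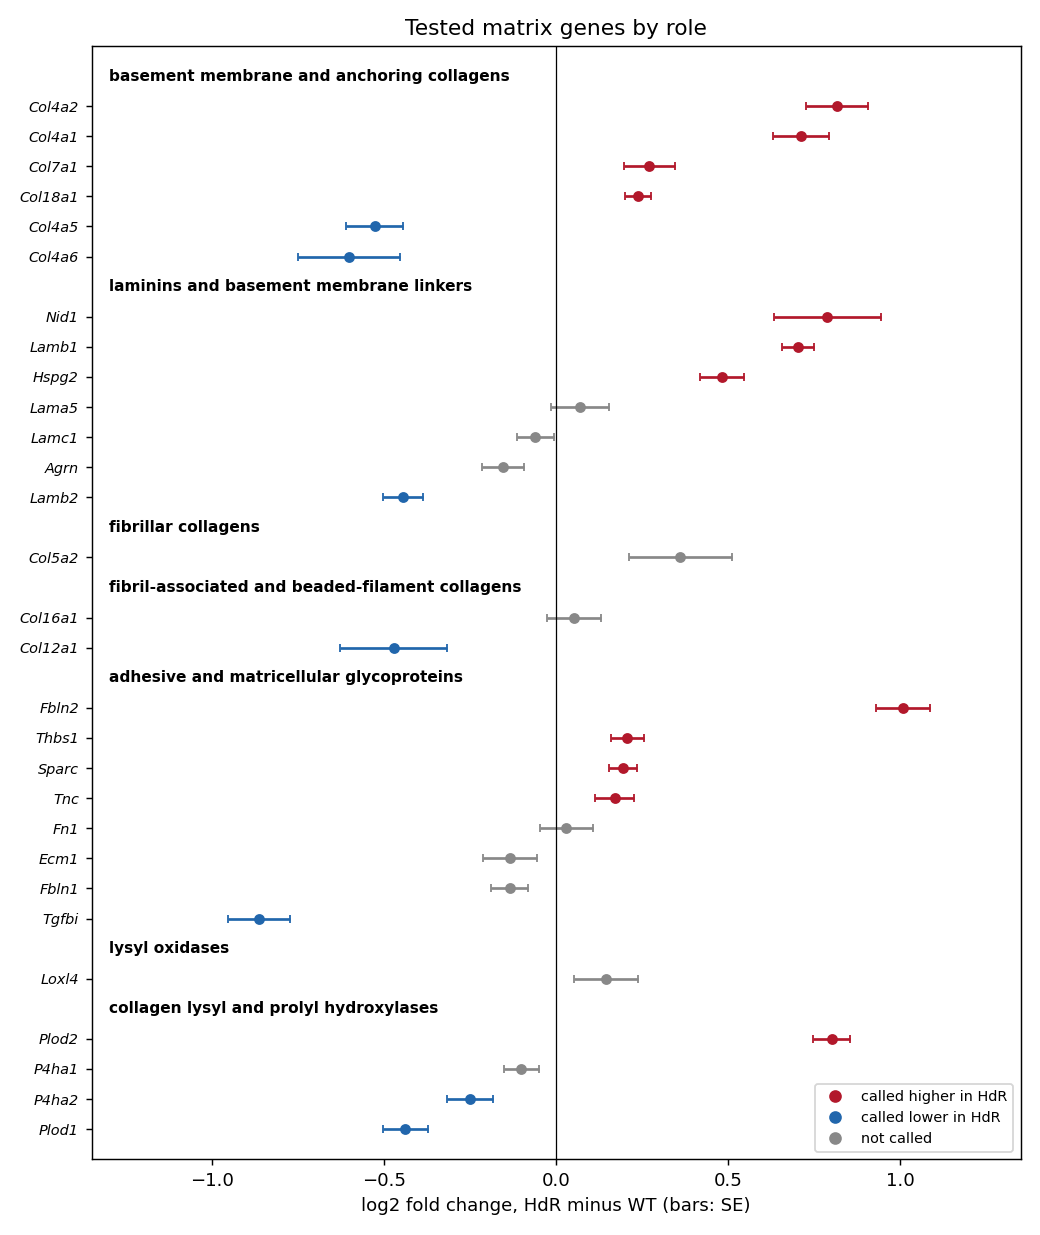
Log2 difference between HdR and WT for the 29 tested members, grouped by role, with bars showing the limma standard error (n = 4 libraries per genotype). Points to the right of 0 were higher in HdR; Fbln2 lies farthest to the right at 1.01 and Tgfbi farthest to the left at -0.86, and both directions occur within the collagens and within the laminins.

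The type IV collagens moved in opposite directions by chain pair: Col4a1 and Col4a2, the chains of the ubiquitous basement membrane network, rose in HdR, and Col4a5 and Col4a6, chains of a network found in the epidermal basement membrane, fell. All 6 basement membrane and anchoring collagens were tested and called, 4 higher and 2 lower, with a median log2 difference of 0.25. Over all tested genes, 21.3% were called higher and 23.9% lower. Each chain pair is encoded head to head at 1 locus. Col4a1 (GRCm38 chr8:11198423-11312826, minus strand) and Col4a2 (chr8:11312805-11449287, plus strand) overlap in their first exons. The shared bases are printed because they show how tightly the pair that rose is joined, read on the plus strand at chr8:11312805-11312826 (RefSeq, GRCm38.p6), with capitals marking the GC-box letters GGGCGG:
Col4a1 and Col4a2 shared first-exon bases: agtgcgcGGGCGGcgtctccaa
Col4a6 (chrX:141165403-141474076, minus strand) and Col4a5 (chrX:141475385-141689234, plus strand) lie next to each other without overlap, and their RefSeq starts are 1343 bases apart. The stretches just upstream of the pair that fell are printed for comparison, each on its gene's own strand (chrX:141475169-141475384 for Col4a5, plus strand, and chrX:141474077-141474326 for Col4a6, minus strand). The Col4a5 print stops 35 bases before its RefSeq start, because annotated exons were left out. The full promoter windows of Col4a5 and Col4a6 each hold GGGCGG, on either strand, at 1 place. In the prints, capitals mark a CCAAT box in the first and a GC box, read as CCGCCC from the opposite strand, in the second:
Col4a5 upstream: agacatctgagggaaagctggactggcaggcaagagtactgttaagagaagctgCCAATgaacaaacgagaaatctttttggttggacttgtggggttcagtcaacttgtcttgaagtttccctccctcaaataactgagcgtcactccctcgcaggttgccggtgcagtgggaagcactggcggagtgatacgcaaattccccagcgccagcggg
Col4a6 upstream: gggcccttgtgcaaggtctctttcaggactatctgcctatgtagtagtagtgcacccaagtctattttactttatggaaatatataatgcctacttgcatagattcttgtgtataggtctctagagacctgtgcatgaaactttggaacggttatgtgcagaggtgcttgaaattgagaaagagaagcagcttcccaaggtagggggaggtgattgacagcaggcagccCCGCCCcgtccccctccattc

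Col4a1 measured 12.1, 11, 12.1 and 12.8 aligned bases per Mb in WT 1 to 4 and 20.6, 22.2, 17.3 and 21.3 in HdR 1 to 4. All HdR libraries lay above all WT libraries, and Col4a1 rose by 0.71 ± 0.081 (SE) on the log2 scale (limma, adjusted p = 2.58e-06). Its partner Col4a2 measured 7.75, 7.52, 6.47 and 8.02 in WT and 15.1, 15.0, 13.0 and 12.4 in HdR. The groups again did not overlap, and Col4a2 rose by 0.82 ± 0.090 (limma, adjusted p = 1.88e-06). The log2 ratio of Col4a1 to Col4a2 was 0.62 ± 0.13 (SD, n = 4) in WT and 0.52 ± 0.16 in HdR, a difference of -0.10 that did not pass an exact two-sided permutation test (p = 0.371, adjusted p = 0.446 over 6 pairs of members). Because the strand setting of the counting is not given in the sources used here, reads on the 22 shared bases, 0.295% of the exon bases of Col4a1 and 0.332% of those of Col4a2, cannot be assigned to 1 of the genes.

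Col4a5 measured 19.4, 20.7, 16.1 and 20.0 in WT and 12.4, 12.5, 14.3 and 12.3 in HdR. WT 3 was the lowest WT library and HdR 3 the highest HdR library, and the groups did not overlap. Col4a5 fell by 0.53 on the log2 scale (SE 0.082; limma, adjusted p = 6.81e-05). Col4a6, at the lower end of the tested range, measured 2.35, 3.46, 1.58 and 2.49 in WT and 1.36, 1.30, 1.0 and 1.34 in HdR. Every HdR library lay below every WT library, by a narrow margin from WT 3, and Col4a6 fell by 0.60 on the log2 scale (SE 0.15; limma, adjusted p = 0.00333). This size too depends on the pseudocount, with a log2 difference of -0.89 at a pseudocount of 0.1 and -0.25 at 5, and with limma-voom it was -0.92. The ratio of Col4a5 to Col4a6 was 2.55 ± 0.19 in WT and 2.63 ± 0.21 in HdR on the log2 scale (SD, n = 4; exact permutation p = 0.629, adjusted p = 0.629).

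Col7a1, which encodes the collagen of the anchoring fibrils, was called higher by 0.27 ± 0.074 on the log2 scale (limma, adjusted p = 0.0132), with WT libraries from 130 to 155 and HdR libraries from 146 to 182 aligned bases per Mb. The groups overlapped through WT 4, and the call was lost when WT 2 (adjusted p = 0.0624) or WT 3 (adjusted p = 0.0644) was left out. Col18a1 was called higher by 0.24 ± 0.039 (limma, adjusted p = 0.000101), from 830 to 939 in WT and from 991 to 1057 in HdR, without overlap.

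**Figure D3:**
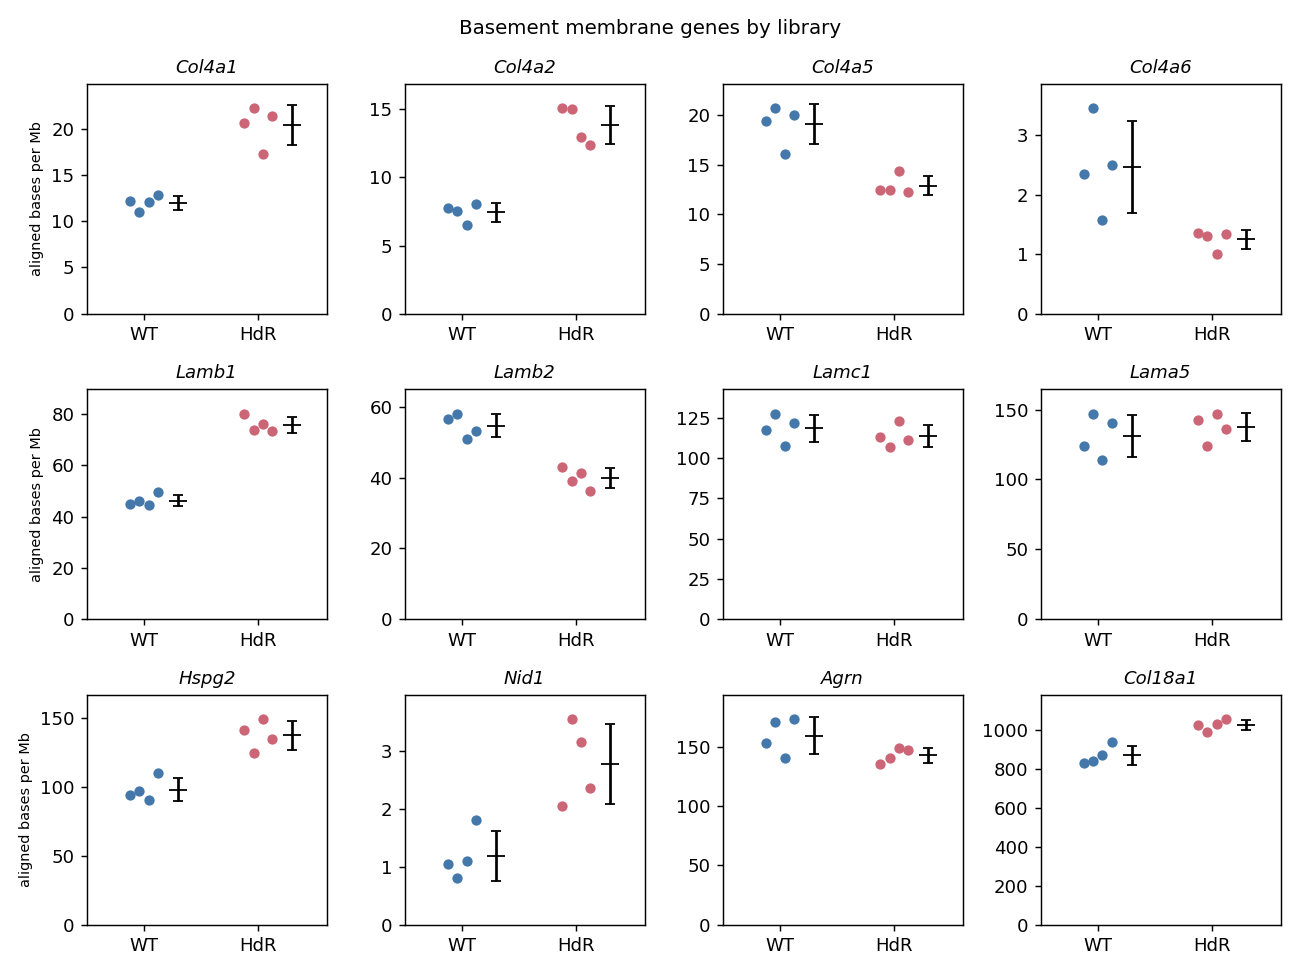
Level of 12 basement membrane genes in each of the 8 libraries (aligned bases per Mb; points are libraries, ordered 1 to 4 from left to right, with the mean and SD of 4 beside them). Col4a1, Col4a2, Lamb1, Hspg2, Nid1 and Col18a1 are higher in all HdR libraries than in any WT library, Col4a5, Col4a6 and Lamb2 are lower in all of them, and Lamc1, Lama5 and Agrn overlap.

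Among the laminins and the proteins that link them to the collagen network, the laminin beta chains also moved in opposite directions. Of the 8 genes, 7 were tested, 3 were higher, 1 was lower and 3 were not called, with a median log2 difference of 0.07. The shares over all tested genes were 21.3% higher and 23.9% lower. Lamb1 encodes the beta-1 chain (chr12:31265234-31329644, plus strand) and Lamb2 the beta-2 chain (chr9:108479736-108490530, plus strand), which occupy the same position in alternative laminin trimers. The stretches upstream of both genes are printed because these chains differ in direction (RefSeq, GRCm38.p6, plus strand, chr12:31265043-31265233 and chr9:108479779-108479856). Capitals mark the searched motifs, which in Lamb1 are a GCGTG on the opposite strand, a CCAAT box, a CAGAC on the printed strand and GGGCGG at 2 places on the opposite strand, and none of the searched motifs occurs in the Lamb2 stretch. That stretch has 78 bases against 191 for Lamb1, because annotated exons were left out of the print, and the full Lamb2 promoter window holds CAGAC at 2 places:
Lamb1 upstream: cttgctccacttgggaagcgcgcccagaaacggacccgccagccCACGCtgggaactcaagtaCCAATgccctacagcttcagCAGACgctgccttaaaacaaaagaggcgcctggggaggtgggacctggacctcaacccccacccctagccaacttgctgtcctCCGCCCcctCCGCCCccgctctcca
Lamb2 upstream: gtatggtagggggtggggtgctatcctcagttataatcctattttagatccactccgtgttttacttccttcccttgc

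Lamb1 measured 44.9, 46.1, 44.4 and 49.4 in WT and 80.1, 73.7, 76.0 and 73.5 in HdR. The groups were far apart, with little spread inside either, and Lamb1 rose by 0.70 ± 0.048 on the log2 scale (limma, adjusted p = 9.41e-09). Lamb2 measured 56.6, 58.1, 50.9 and 53.3 in WT and 42.9, 39.0, 41.4 and 36.4 in HdR. No library of one genotype reached the other, and Lamb2 fell by 0.45 on the log2 scale (SE 0.058; limma, adjusted p = 1.18e-05). Per kb of exon, Lamb2 was above Lamb1 in WT (9.0 ± 0.533 against 4.66 ± 0.226) and below it in HdR (6.57 ± 0.471 against 7.64 ± 0.308). The log2 ratio of Lamb1 to Lamb2 went from -0.24 ± 0.11 to 0.91 ± 0.059 (SD, n = 4), a difference of 1.15 whose exact permutation p of 0.0286 is the smallest that 70 regroupings allow, and which had an adjusted p of 0.0571.

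Hspg2, the gene of the heparan sulfate proteoglycan perlecan, measured 94.5, 97.3, 90.8 and 111 in WT and 141, 125, 149 and 135 in HdR. Its HdR libraries were all higher than WT 4, the highest WT library, and Hspg2 rose by 0.48 ± 0.064 (limma, adjusted p = 5.35e-05). Nid1, which encodes the laminin-collagen IV linker nidogen-1, measured 1.05, 0.802, 1.11 and 1.81 in WT and 2.06, 3.55, 3.16 and 2.37 in HdR. The groups did not overlap, and Nid1 rose by 0.79 ± 0.16 (limma, adjusted p = 0.000595). At so low a level the pseudocount sets the size of the difference, which was 1.2 with a pseudocount of 0.1 and 0.33 with a pseudocount of 5. HdR 2, the highest Nid1 library, also had the highest summed level of the 10 fibroblast-type members too low to test; without it the Nid1 difference was 0.69 (limma, adjusted p = 0.00314).

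The other laminin chains were not called. Lamc1, the gamma-1 chain, ranged from 107 to 127 in WT and from 107 to 123 in HdR (log2 difference -0.06, limma adjusted p = 0.374). Lama5, the alpha-5 chain, ranged from 114 to 147 and from 124 to 147 (0.07, limma adjusted p = 0.542). Agrn, the proteoglycan agrin, ranged from 141 to 173 in WT and from 135 to 149 in HdR and did not pass (-0.15, limma adjusted p = 0.0505); it passed when WT 3 was left out (adjusted p = 0.000967) and with limma-voom (adjusted p = 0.0225). Nid2 was not tested, at 0.145 or lower in every library.

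Some of the basement membrane genes that rose are also abundant in blood vessel cells, so the endothelial markers are given beside them. Of 8 markers, 6 were in the table and their sum was 2.81 to 3.77 in WT and 5.14 to 6.31 in HdR. Flt1 accounted for most of it (2.26 ± 0.356 in WT, 3.50 ± 0.204 in HdR; SD, n = 4), and Pecam1 was at 0.457 ± 0.157 and 0.839 ± 0.238. Kdr was at most 0.0589 in WT and 0.554 in HdR. Cdh5, the cadherin that defines endothelial junctions, was at 0 in all 4 HdR libraries and in 3 of the 4 WT libraries. The part of these markers in the basement membrane results was not tested.

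Most fibril-forming, fibril-associated and beaded-filament collagens were too low to test. Of 5 fibril-forming collagens, 1 was tested and not called. Of 4 fibril-associated and beaded-filament collagens, 2 were tested and 1 was called, where 45.2% of all tested genes were called. Of the 5 fibrillar collagens, Col5a2 was tested, at 1.16 to 1.89 in WT and 1.79 to 3.20 in HdR (log2 difference 0.36 ± 0.15, limma adjusted p = 0.0571). HdR 2 alone reached 3.20, the other HdR libraries stayed at 1.86 or lower, and the difference without HdR 2 was 0.22. The gene passed when WT 1 was left out (adjusted p = 0.0355), with upper-quartile scaling (adjusted p = 0.0413) and with library totals (adjusted p = 0.0468). Col12a1, a fibril-associated collagen, measured 141, 157, 99.4 and 139 in WT and 96.2, 82.1, 106 and 97.8 in HdR. WT 3 lay inside the HdR range, so the groups overlapped. Col12a1 fell by 0.47 on the log2 scale (SE 0.16; limma, adjusted p = 0.0476), a call that was lost in 13 of 20 alternative analyses, including the omission of any single library other than WT 3. Col16a1, another fibril-associated collagen, was at 13.0 to 15.3 in WT and 12.7 to 15.2 in HdR and was not called (0.05, limma adjusted p = 0.624). Col6a1 and Col6a2, chains of the beaded filaments of collagen VI, were below the tested range.

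The adhesive and matricellular glycoproteins held both the largest rise and the largest fall among the tested members at a pseudocount of 1. Of 10 genes, 8 were tested, 4 were higher, 1 was lower and 3 were not called, with a median log2 difference of 0.10. Again the background is 21.3% of all tested genes higher and 23.9% lower. Fbln2, the elastic fibre and basement membrane protein fibulin-2, measured 25.5, 27.0, 26.1 and 30.9 in WT and 51.0, 50.9, 58.4 and 64.7 in HdR. The lowest HdR library was well above the highest WT library, and Fbln2 rose by 1.01 ± 0.079 on the log2 scale (limma, adjusted p = 2.48e-07). Its paralog Fbln1 ranged from 34.0 to 37.4 in WT and from 30.5 to 34.0 in HdR, which did not overlap, but the difference of -0.13 did not pass (limma, adjusted p = 0.0519); it passed without WT 3 (adjusted p = 0.0305) or HdR 4 (adjusted p = 0.0465), with the stricter filter of at least 5 aligned bases per Mb in 4 libraries (adjusted p = 0.0482), with limma-voom (adjusted p = 0.0252) and after thinning (adjusted p = 0.0423). The log2 ratio of Fbln1 to Fbln2 went from 0.39 ± 0.10 in WT to -0.76 ± 0.12 in HdR (SD, n = 4; exact permutation p = 0.0286, adjusted p = 0.0571).

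Tgfbi, a secreted adhesion protein named for its induction by TGF-beta, measured 121, 123, 107 and 129 in WT and 58.0, 60.8, 67.4 and 77.0 in HdR. All HdR libraries were below all WT libraries, and Tgfbi fell by 0.86 on the log2 scale (SE 0.090; limma, adjusted p = 5.12e-05). Smaller rises were called for Thbs1 at 0.21 ± 0.048 (315 to 373 in WT, 398 to 421 in HdR), Sparc, a collagen-binding glycoprotein, at 0.19 ± 0.040 (64.4 to 67.4, 73.7 to 77.4), and the adhesion-modulating glycoprotein Tnc at 0.17 ± 0.058 (36.6 to 43.5, 43.2 to 47.6). Thbs1 and Sparc did not overlap between genotypes (limma, adjusted p = 0.00222 and 0.000835). Tnc overlapped (limma, adjusted p = 0.0239), and its call was lost without WT 1, WT 3, HdR 2 or HdR 3, at adjusted p = 0.0636, 0.0741, 0.0655 and 0.0560, and with no low filter (adjusted p = 0.0539). Fn1, the gene of fibronectin, was at 64.6 to 79.4 in WT and 62.9 to 77.5 in HdR (0.03, limma adjusted p = 0.781). Ecm1, a dermal-epidermal junction glycoprotein, was at 17.1 to 21.8 and 16.1 to 18.7 (-0.13, limma adjusted p = 0.183).

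**Figure D4:**
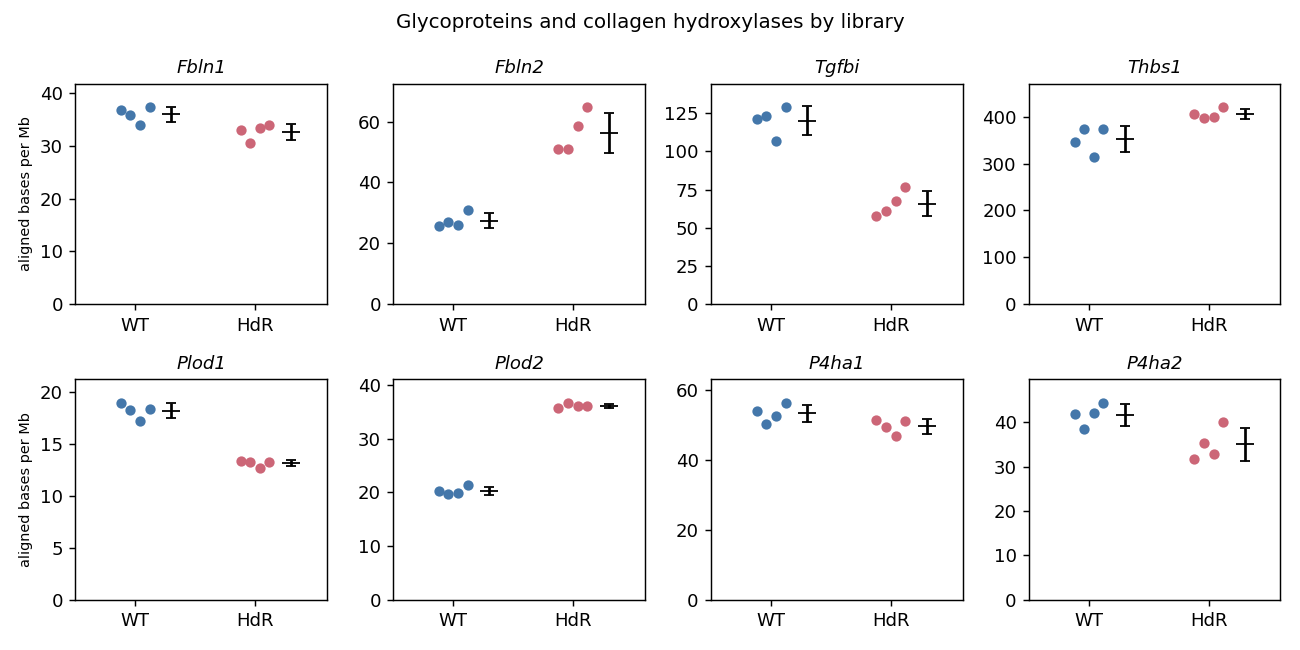
Level of 4 glycoprotein genes and 4 collagen hydroxylase genes in each of the 8 libraries (aligned bases per Mb; points are libraries, ordered 1 to 4 from left to right, with the mean and SD of 4 beside them). Fbln2, Thbs1 and Plod2 are higher and Tgfbi, Fbln1 and Plod1 lower in all HdR libraries, although Fbln1 did not pass the test, and P4ha1 and P4ha2 overlap.

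The collagen lysyl hydroxylases among the members, Plod1 and Plod2, moved against each other. Plod3, a lysyl hydroxylase outside the members, was called higher by 0.19 ± 0.054 on the log2 scale (limma, adjusted p = 0.00812). Plod2, which hydroxylates lysines of the collagen telopeptides that take part in crosslinks, measured 20.2, 19.8, 19.8 and 21.4 in WT and 35.7, 36.6, 36.1 and 36.0 in HdR. Spread within either genotype was small and the groups lay far apart, and Plod2 rose by 0.80 ± 0.054 on the log2 scale (limma, adjusted p = 7.84e-09). Plod1, which hydroxylates lysines of the triple helix, measured 19.0, 18.3, 17.2 and 18.4 in WT and 13.4, 13.3, 12.7 and 13.3 in HdR. The groups did not overlap, and Plod1 fell by 0.44 on the log2 scale (SE 0.065; limma, adjusted p = 4.11e-05). The log2 ratio of Plod1 to Plod2 went from -0.15 ± 0.062 to -1.39 ± 0.036 (SD, n = 4; exact permutation p = 0.0286, adjusted p = 0.0571). A predicted gene, Gm38391, shares 6.42% of the exon bases of Plod2.

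The prolyl hydroxylase subunits, which stabilise the collagen triple helix, differed less. P4ha2 was called lower by 0.25 on the log2 scale, at 38.4 to 44.3 in WT and 31.8 to 40.1 in HdR with overlap (SE 0.068; limma, adjusted p = 0.00656). P4ha1 was at 50.3 to 56.4 and 46.8 to 51.4 and was not called (-0.10, limma adjusted p = 0.110; after thinning, adjusted p = 0.0361). Their log2 ratio was 0.35 ± 0.028 in WT and 0.50 ± 0.14 in HdR (SD, n = 4; exact permutation p = 0.0857, adjusted p = 0.129). Lysyl oxidases crosslink collagen and elastin outside the cell. Of the 4 among the members, Loxl4 was tested and not called, at 5.60 to 6.89 in WT and 6.66 to 7.32 in HdR (0.15, limma adjusted p = 0.216). Lox, Loxl1 and Loxl2 were below the tested range, at 0.743 or lower in every library. Loxl3, a lysyl oxidase outside the members, was called higher by 0.30 ± 0.097 on the log2 scale (limma, adjusted p = 0.0179). It ranged from 6.34 to 8.52 in WT and from 8.82 to 10.5 in HdR, without overlap. Of the 6 ratios within pairs of members tested here, none passed at an adjusted p of 0.05, although 3 were at the smallest exact p that 4 libraries against 4 allow. When HdR 4 was left out, 4 of the 6 passed (adjusted p = 0.0429). No pair could pass unless at least 4 of the 6 were at the smallest exact p, whatever the size of their differences. These counts therefore do not measure how far the ratios differed.

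Epithelial-type and fibroblast-type members were present at very different levels. All 13 epithelial-type members were tested, of which 6 were higher, 3 lower and 4 not called in HdR, with a median log2 difference of 0.07 (0.0041 without WT 3, 0.125 without WT 2). Counts for each type stand against 21.3% of all tested genes higher and 23.9% lower. Their summed level was 1611 to 1802 aligned bases per Mb in WT and 1815 to 1945 in HdR, and most of it was Col18a1. Of the 13 fibroblast-type members, 3 were tested: Fbln2 was higher, and Fbln1 and Col5a2 were not called, with a median of 0.36 over the 3 (0.22 without HdR 2). The summed fibroblast-type level was 64.0 to 72.0 in WT and 87.5 to 104 in HdR, nearly all of it Fbln1 and Fbln2. Fbln2 averaged 27.4 in WT and 56.3 in HdR, and Fbln1 averaged 36.0 and 32.7, so Fbln2 carried the higher sum. Per kb of exon, Fbln1 was at 8.25 and 7.49 and Fbln2 at 4.30 and 8.83. The epithelial-type medians were 7.53 and 7.64, so the levels of these genes do not bear out the fibroblast-type name, which is that of the list. The 15 members made by both cell types had 13 tested, 5 higher, 4 lower and 4 not called, with a median of 0.05. No test of the difference between the types was made, since 3 genes on one side do not carry it.

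The 12 members below the tested range were Col1a1, Col1a2, Col3a1, Col5a1, Col6a1, Col6a2, Postn, Thbs2, Lox and Loxl1 of the fibroblast type, together with Nid2 and Loxl2. In each of the 12 the WT and HdR values overlapped. HdR 2 stood apart from the other 7 libraries: the 10 fibroblast-type genes summed to 11 in HdR 2 and to 1.70 to 3.14 in the others. Divided by the bases that a full read pair would add, the sum in HdR 2 was worth about 132 read pairs. HdR 2 was the highest library for 7 of the 10. Col1a1, a chain of collagen I, was at 1.42 in HdR 2 (worth 17.0 read pairs) and at 0.231 or lower elsewhere. Thbs2, thrombospondin 2, was at 3.41 in HdR 2 (worth 40.9 read pairs) and at 0.0583 to 0.415 in the other 7 libraries. Col3a1, the chain of collagen III, was at 0.845 in HdR 2 and 0.260 or lower elsewhere, and Col5a1, a chain of collagen V, at 1.79 and 0.607 or lower. Postn, the gene of periostin, was highest in WT 4 at 0.785.

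**Figure D5:**
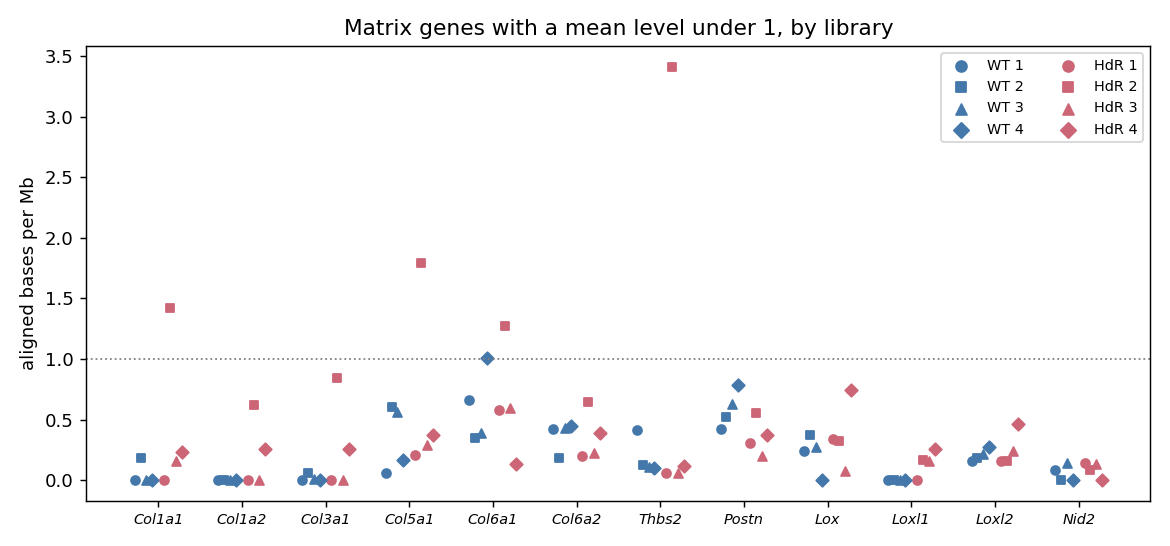
Level of the 12 members below the tested range in each of the 8 libraries (aligned bases per Mb; each point is 1 library, and the dotted line is the mean of 1 needed for testing). HdR 2 lies above the other libraries for 7 of the 10 fibroblast-type genes, with Thbs2 at 3.41 and Col1a1 at 1.42.

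Fibroblast markers outside the matrix genes were near the floor of the measurement. Of 16 markers, 14 were in the table and 13 of those averaged below 1. The sum of all 14 was 3.60 to 5.44 in WT and 3.53 to 5.53 in HdR, and HdR 2 had the highest sum. Over the 13 low markers it was 3.58 in HdR 2 and 1.43 to 2.18 in the other libraries, and HdR 2 was the highest library for 7 of the 13. Among those 7, Fbn1 was at 0.526, Pdgfrb at 0.495 and Twist2 at 0.334 in HdR 2. In the other libraries they were at or below 0.201, 0.184 and 0.151. Other low markers did not follow. Pdgfra was highest in HdR 4, at 1.10 against 0.977 in HdR 2, and Dpp4 was at 0.463 in HdR 2 against 0.818 to 1.16 in WT. Dcn, the gene of decorin and a defining dermal fibroblast marker, was at 0 in all 4 HdR libraries, HdR 2 included. It was also at 0 in 3 of the 4 WT libraries and at 0.0572 in WT 1, and Pi16 was at 0 in all 8 libraries. The tested marker, Thy1, was called lower in HdR (-0.39 ± 0.13, limma adjusted p = 0.0244). Summed pericyte and smooth muscle markers ranged from 380 to 399 in WT and 366 to 388 in HdR, and immune markers from 4.27 to 6.67 and 3.20 to 4.79. Of the 7 pericyte and smooth muscle markers, 3 were tested, and 1 was higher and 2 lower, without overlap. Rgs5, a pericyte marker, was at 0 in all 8 libraries. The part of these marker lists in the results was not tested. Leaving out HdR 2 left 11 members called higher and 6 lower, with Fbln2, Lamb1, Col4a1, Col4a2, Hspg2, Nid1 and Plod2 still among those higher. The share of all genes called without HdR 2 is not given here.

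Among the genes that fold, secrete, cleave and anchor these proteins, calls went in both directions. For comparison, 21.3% of all tested genes were called higher and 23.9% lower. Of 16 genes for collagen folding and secretion, 14 were tested, 5 were higher and 1 lower (median 0.05), led by Creb3l2 (0.58 ± 0.086), a transcription factor of the secretory pathway, P4hb (0.19 ± 0.041), the shared subunit of the prolyl hydroxylases, and P3h2 (-0.30 ± 0.056), a prolyl 3-hydroxylase. Of 14 genes for propeptide processing and fibril control, 5 were tested and 4 were higher (median 0.48), among them the procollagen C-proteinases Bmp1 (0.50 ± 0.052) and Tll1 (0.71 ± 0.12) and the proteinase enhancer Pcolce2 (0.48 ± 0.10). Of 24 proteases and inhibitors, 18 were tested, 6 were higher and 7 lower (median 0.04). The metalloprotease Adam12 rose by 1.88 ± 0.10, from 4.32 to 6.35 in WT to 20.1 to 23.5 in HdR. The type IV collagenase Mmp2 fell by 2.12 on the log2 scale (SE 0.13), from 10.04 to 15.4 in WT to 1.66 to 2.60 in HdR, and the cathepsin gene Ctsb fell by 0.30 (SE 0.033). Mmp9, also a type IV collagenase, went the other way. It rose by 1.08 ± 0.12, from 1.09 to 1.88 in WT to 3.79 to 4.55 in HdR.

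Of 24 genes for TGF-beta signalling, a pathway that controls matrix genes in many cell types, 19 were tested, 8 were higher and 6 lower (median 0.04). The background for this and the next 2 lists is 21.3% of all tested genes higher and 23.9% lower. Higher genes included the receptor Tgfbr2 (0.40 ± 0.041), the latent TGF-beta binding protein Ltbp1 (0.67 ± 0.085) and the matricellular gene Cyr61 (0.70 ± 0.037). Lower genes, picked after their values were seen, included the partner receptor Tgfbr1 (-0.41 ± 0.073) and the latent TGF-beta binding proteins Ltbp4 (-0.64 ± 0.12) and Ltbp3 (-0.27 ± 0.050). Of 12 genes for laminin-332 and its anchoring complex, 11 were tested, 8 were higher and 1 lower (median 0.28), with Itga3 (0.53 ± 0.041) and Itgb4 (0.43 ± 0.041), which encode laminin-binding integrin chains, and Lamb3 (0.37 ± 0.034), a chain of laminin-332. The gene that was lower, Fras1, encodes a basement membrane protein and fell by 1.01 on the log2 scale (SE 0.14); without WT 3, 2 genes of that list were lower. Of 41 other matrix genes, 14 were tested, 4 were higher and 5 lower (median -0.02, and 0.02 with upper-quartile scaling). In that list Efemp1, a fibulin-family gene, rose by 0.84 ± 0.056, and Matn2, which encodes a filament-forming matrix protein, fell by 0.54 on the log2 scale (SE 0.064).

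RefSeq promoter windows (GRCm38.p6, 250 bases before to 50 after the start) were found for 30 of the 41 members, in 36 windows. They were searched on both strands for the GC box GGGCGG, for the CCAAT box, for the hypoxia-response core letters ACGTG as well as the variant GCGTG, for the AP-1 site TGANTCA, for the SMAD-binding letters CAGAC, and for their palindromic form GTCTAGAC; no motif contains another. GGGCGG was in 10 of the 12 windows of members called higher, in 5 of the 6 of members called lower, in 8 of the 9 of members not called, in 4 of the 9 of members not tested, and in 35.7% of all 32851 windows. CCAAT was in 6 of 12 and 1 of 6, and in 1 of the 9 windows of members not called, against 37.4% of all windows. CAGAC was in 7 of 12 and 3 of 6, and in 5 of those 9, against 49.6%. GCGTG was in 5 of 12 and 3 of 6, and in 6 of the 9 windows of members not called, against 32.4%. ACGTG was in 0 of 12 and 1 of 6, and in 3 of those 9, against 19.6%. TGANTCA and GTCTAGAC were in none of the windows of called members, and in 1 and 0 of the 9 of members not called, against 7.81% and 0.213% of all windows. These counts describe letters in a short window and were not tested. They count windows and not members. Among members called higher, Col18a1 and Tnc have more than 1 window, and Plod2 and Thbs1 have none. The Tnc windows overlap each other, and those of Col4a1 and Col4a2 share 78 bases, so some sites were counted more than once.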

How the data were processed

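RNA was sequenced from 4 WT and 4 HdR libraries of cultured mouse keratinocytes. Per the labels' protocols, total RNA was extracted with the RNeasy mini kit and sequencing libraries were prepared with the NEBNext Ultra II RNA Library kit. The submitters' processing notes name the build GRCm38. Aligner, counting tool and strand setting are not given in the sources used here. The deposited values are signal: coverage, read as whole-number sums of aligned bases per gene because the commonest step is 302, the bases of a read pair; they were not scaled for depth or length. They are not read counts, so the count model written as a second option was not used, and no counting interval is given.

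Each library was scaled by trimmed-mean (TMM) factors, trimming 30% of log ratios and 5% of mean levels, to aligned bases per Mb. All genes with a mean of at least 1 were fitted together with limma 3.58.1 (lmFit and eBayes with trend and robust variance; R 4.3.3, statmod 1.5.0) on log2(value + 1), with genotype as the factor. Two-sided p-values were adjusted by Benjamini-Hochberg across the 11870 genes, with calls under 0.05. Log2 differences are on the log2(value + 1) scale, which understates changes of low genes. Within-pair ratios were compared with exact two-sided permutation tests over 70 regroupings of the libraries, adjusted over 6 pairs.

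Positions and exon lengths come from GENCODE vM21 (GRCm38), in which all 41 members matched by symbol; sequences come from RefSeq. Members called with an absolute log2 difference of at least 0.4 are given in every library, others by range, and up to 3 called genes with the smallest p from each pathway list. Some further list genes, such as Plod3, Loxl3 and Mmp9, were added after their values were seen. Members and lists were chosen with earlier results of these data known. Lists overlap in a few genes, such as Ltbp1, Bgn and Col17a1. Alternatives covered scaling, filter, pseudocount, limma-voom, a fold threshold, thinning, the replicate block and omitted libraries. The script was tested on simulated data. Figures were drawn with matplotlib 3.10.9 (Python 3.11.15).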

Additional observations from a re-analysis of the deposited data

Results flagged for a closer look

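Group values of the 29 tested members were checked for a single library far from the other 3 of its genotype, and 5 of 58 had one, where chance alone gives about 1 in 20. Fibronectin (Fn1) was at 79.4 aligned bases per Mb in WT 2 and at 64.6 to 66.2 in the other WT libraries. Col4a5, a type IV collagen chain that fell in HdR, was at 14.3 in HdR 3 and 12.3 to 12.5 in the other HdR libraries, still below the lowest WT library. Its neighbour Col4a6 was at 1.0 in HdR 3 and 1.30 to 1.36 in the others, so HdR 3 was the high library for one chain and the low library for the other. Col5a2, a fibrillar collagen chain, was at 3.20 in HdR 2 and 1.79 to 1.86 in the other HdR libraries; HdR 2 is also the library with the most signal from the fibroblast-type members too low to test. Col7a1, the anchoring fibril collagen, was at 155 in WT 4 and 130 to 132 in the other WT libraries, above the lowest HdR library at 146.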

How the results depend on the processing

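No called member changed direction under the alternatives run, up to 20 for a member, nor did the median over all tested, epithelial-type or fibroblast-type members. The median of the fibril-associated and beaded-filament collagens was -0.21 and 0.000059 with no filter. Of the 19 called members, 16 kept their call in every alternative that tested them other than the test against a fold of 1.2, although Nid1 and Col4a6 were not tested under the stricter filter; Col12a1, Col7a1 and Tnc did not. Against a fold of 1.2 there were 7 members higher and 3 lower, and 344 and 543 of all genes. The median over tested members was 0.15 without a low filter. The fibroblast-type median, over so few genes, was 0.23 without a filter (where 2 of that type were called higher), 0.44 with at least 5 aligned bases per Mb in 4 libraries, 0.54 and 0.15 with pseudocounts of 0.1 and 5, and 0.44 with limma-voom; the epithelial-type median was 0.15 with the stricter filter. Leaving out 1 library at a time, the fibroblast-type median ranged from 0.22 to 0.45, the epithelial-type median from 0.0041 to 0.125, members called higher from 10 to 12 and lower from 6 to 9, and pairs passing from 0 to 4. Whether any pair passed depended on how many pairs were at the smallest exact p. The member counts are given without the share of all genes. The share of calls that were higher was 47.1% over all genes, 57.7% with upper-quartile scaling (3113 higher, 2278 lower) and 54.0% with library totals (2880 and 2453). The cause of these shifts was not tested.

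The sources used here give no link beyond the number between same-numbered libraries of the 2 genotypes. The correlations of their deviations were 0.0277, -0.0682, -0.223 and 0.0203, and none correlated best with its own number. Whether they were handled together is not known. With the replicate block 12 members were higher and 7 lower, and 2240 and 2524 of all genes; Col12a1 lost its call (limma, adjusted p = 0.143) and Agrn gained one (limma, adjusted p = 0.0455). Levels near 1 aligned base per Mb rest on few read pairs, which limits Nid1, Col4a6, Col5a2 and the 12 untested members.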

Other observations

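HdR 2 also stood apart in matrix genes outside the 41 described above. Mmp3, the protease stromelysin-1, was at 12.04 aligned bases per Mb in HdR 2 and at 0.549 to 1.63 in the other 7 libraries. Bgn, the gene of the small proteoglycan biglycan, was at 1.34 in HdR 2 and at 0.172 or lower elsewhere. Col6a3, a chain of collagen VI, was at 1.32 in HdR 2 and at 1.0 in HdR 4, with 0.486 or lower in every other library. These genes were singled out after their values were seen.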
